A study of Homo sapiens with 12 samples.

Results

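The neural tube progenitor and interneuron transcription factors are 48 genes of the 28278 gene symbols in the count table, taken by name: 5 pan-progenitor SOX factors, 16 genes that mark the progenitor domains of the spinal cord from ventral to dorsal, 5 proneural bHLH factors and 22 factors of the interneuron classes. RNA-seq was made from motor neuron cultures differentiated from WA09-Islet1-GFP, a line of human embryonic stem cells in which GFP reports the motor neuron factor Islet1. The 4 groups of 3 libraries were control GFP-negative, control GFP-positive, treated GFP-negative and treated GFP-positive cells, all sorted by FACS from cultures given DMSO vehicle or cis-chlordane, an organochlorine pesticide, for 16 h. The labels give 10 µM cis-chlordane, whereas the study's methods state a higher concentration, and the titles of the treated libraries also carry the word untreated; the treatment label and the column names were followed. All groups are of 1 line, so the spread between the 3 libraries, each an independent thaw of frozen cells as the study defines its replicates, does not cover differences between lines.

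In the developing spinal cord, Sonic hedgehog from the floor plate and BMP and WNT signals from the roof plate divide the progenitors into domains, each of which holds its own combination of homeodomain and bHLH factors and gives rise to its own neuron class. From ventral to dorsal, FOXA2 marks the floor plate, NKX2-2 the p3 domain, OLIG1 and OLIG2 the motor neuron progenitors (pMN), NKX6-1, NKX6-2 and IRX3 overlap across the p2 domain, DBX2 and DBX1 mark p1 and p0, and PAX3, PAX7 and OLIG3 are dorsal. As progenitors leave the cell cycle, SOX1, SOX2 and SOX3 are switched off, the neurogenins and NEUROD factors act in sequence, and class factors such as EVX1 (V0), EN1 (V1), GATA2 and GATA3 (V2b) or LHX2 and LHX9 (dI1) come on. Islet1 itself comes on in motor neurons as they leave the cell cycle, and it is also a factor of dI3 neurons.

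Promoter sequence from RefSeq (GRCh38.p14) was matched by symbol for 35 of the 48 genes. The 250 bases upstream of the annotated start, on the gene's strand, are given for 4 genes that the results below turn on: SOX3, which fell in both sort fractions, NKX6-1, the member at the highest level in GFP-positive cells, and PAX6 and NEUROD4, which rose in GFP-positive cells. They lie at chrX:140505070-140505319 (minus strand), chr4:84499293-84499542 (minus), chr11:31817962-31818211 (minus) and chr12:55019724-55019973 (plus). Capitals mark matches, on either strand, to the GC box (GGGCGG), the CCAAT box (CCAAT) and the ATF4 element (TGATGNAA).
SOX3: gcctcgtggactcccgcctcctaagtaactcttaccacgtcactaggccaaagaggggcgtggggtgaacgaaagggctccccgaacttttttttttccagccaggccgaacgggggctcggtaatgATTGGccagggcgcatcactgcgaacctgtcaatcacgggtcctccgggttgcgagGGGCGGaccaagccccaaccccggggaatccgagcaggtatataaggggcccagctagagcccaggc
NKX6-1: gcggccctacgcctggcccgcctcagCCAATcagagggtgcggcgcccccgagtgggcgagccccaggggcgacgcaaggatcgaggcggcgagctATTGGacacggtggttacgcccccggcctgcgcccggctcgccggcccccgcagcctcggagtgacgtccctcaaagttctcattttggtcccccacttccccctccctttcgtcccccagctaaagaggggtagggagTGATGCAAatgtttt
PAX6: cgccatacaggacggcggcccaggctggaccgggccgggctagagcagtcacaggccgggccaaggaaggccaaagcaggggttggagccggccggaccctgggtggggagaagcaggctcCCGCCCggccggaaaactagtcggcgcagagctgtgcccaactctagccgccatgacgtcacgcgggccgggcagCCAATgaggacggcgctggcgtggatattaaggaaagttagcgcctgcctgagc
NEUROD4: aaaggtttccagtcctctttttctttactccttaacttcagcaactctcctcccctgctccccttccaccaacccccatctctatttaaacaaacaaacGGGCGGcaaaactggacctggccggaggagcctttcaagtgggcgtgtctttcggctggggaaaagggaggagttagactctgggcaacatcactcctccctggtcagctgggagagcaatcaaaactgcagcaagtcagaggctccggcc
The CCAAT box was found in the promoters of 17 of the 35 members (48.6%) and in 33% of 27305 RefSeq promoters, all read as 250 upstream bases, and the GC box in 16 members (45.7%) and in 42.3% of all promoters. A TATA box (TATAAA) was found in 4 members (SOX21, DBX1, OLIG3 and EVX2) and in 11.1% of all promoters. NKX6-1 was the only member of the 35 with the ATF4 element, which 3.19% of all promoters held, and no member had the GLI site GACCACCCA, held by 0.216% of promoters. These letters describe the windows and were not tested as binding sites. The members' promoters had a median GC content of 64.0% against 58.0% over all promoters, and a median CpG observed-to-expected ratio of 0.79 against 0.556.

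Library totals ran from 23414935 to 38347050 counts. Levels are given as CPM, counts scaled by TMM to a common library size, with the SD over 3 libraries, and 3 counts corresponded to 0.0794 to 0.13 CPM depending on the library. ISL1, the gene behind the reporter, was at 62.4 to 68.5 CPM in control GFP-positive and 2.41 to 2.80 CPM in control GFP-negative libraries, and at 8.01 to 15.3 CPM in treated GFP-positive and 0.389 to 0.691 CPM in treated GFP-negative libraries. A list of 8 motor neuron genes summed to 1214 to 1429 CPM in control GFP-positive and 229 to 251 CPM in control GFP-negative libraries, and 8 proliferation genes to 159 to 207 and 1296 to 1339 CPM. Most of the motor neuron sum in control GFP-positive cells was SLC18A3 (mean 791 CPM) and SLC5A7 (327 CPM). Of the 8 motor neuron genes 6 were called higher there. LHX3 was lower (1.91 against 4.44 CPM) and LHX4 was not called (43.1 against 33.7 CPM). Control GFP-negative replicate 3 stood somewhat apart from the other libraries of its group (r of log2 CPM 0.946 and 0.963, against 0.978 to 0.988 in all other replicate pairs). For 19 members, among them NKX2-2, OLIG1, NKX6-2, PAX6 and GATA2, an exon overlaps another gene on the opposite strand; the kit keeps the strand, but the strand setting of the counting is not given in the sources used here, so their counts may include reads of the partner.

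Of the 48 genes, 34 reached a mean of 1 CPM in at least 1 group: 34 in control GFP-negative, 25 in control GFP-positive, 24 in treated GFP-negative and 17 in treated GFP-positive cells. The control GFP-negative cells thus held RNA of marker genes of every progenitor domain from the floor plate to p0, with OLIG3 as the only dorsal progenitor gene above 1 CPM, and of V0, V2 and some dorsal neuron classes at low levels. The other 14 were under 1 CPM in every group. They were the dorsal progenitor genes PAX3 and PAX7, the ventral class factors EVX2, EN1 and SIM1, 7 dorsal class factors (LHX2, LHX9, BARHL1, BARHL2, FOXD3, TLX3 and LBX1), and PAX8 and LHX1. EVX2, SIM1 (the V3 factor) and BARHL1 had no library above 3 counts. For LHX9 and BARHL2 of the dI1 class the highest library was at 0.117 and 0.23 CPM, so neither was detectable much above that floor.

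**Figure D1:**
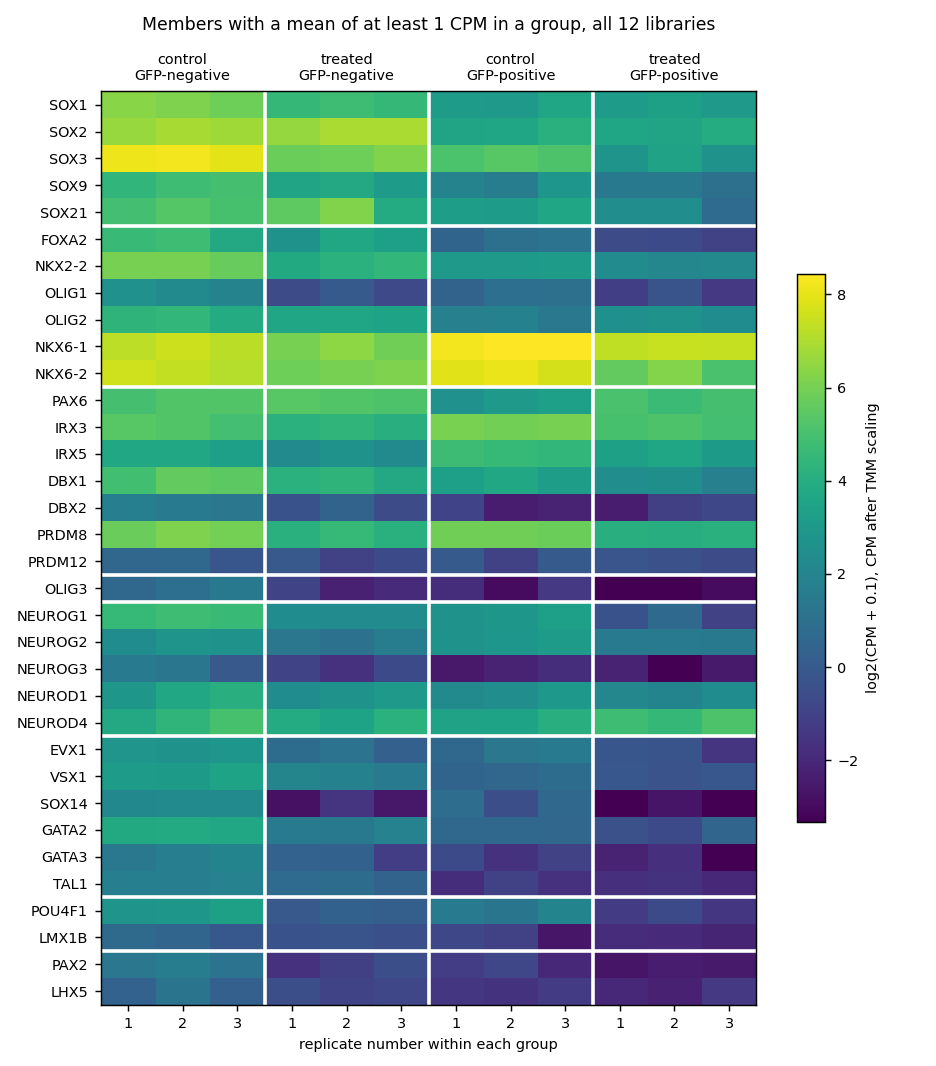
Heat map of the 34 genes with a mean of at least 1 CPM in a group (rows, in order of role, white lines between roles) over the 12 libraries (columns, by group). Colour is log2(CPM + 0.1) after TMM scaling; SOX3 is the brightest row in control GFP-negative cells at 249 to 303 CPM and NKX6-1 in control GFP-positive cells at 300 to 347 CPM, while class factors such as SOX14 and PAX2 are dark in the treated libraries.

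Per kilobase of the longest GENCODE transcript, which allows genes to be compared, SOX3 led the control GFP-negative cells at 134 ± 13.4 CPM per kb (SD, n = 3), above NKX6-2 at 59.7 ± 9.44, NKX6-1 at 46.5 ± 5.71, SOX2 at 43.3 ± 3.61, DBX1 at 32.8 ± 8.02 and NKX2-2 at 28.5 ± 3.73 CPM per kb. From NKX6-2 downwards each of these differed from the next by less than the sum of their SDs, whereas SOX3 stood clear of NKX6-2. In control GFP-positive cells the order was NKX6-1 at 94.5 ± 7.19, NKX6-2 at 86.2 ± 12.8, IRX3 at 24.4 ± 1.06 and SOX3 at 18.0 ± 1.84 CPM per kb. The first pair did not differ beyond its spread and made up 32.2% and 29.4% of the summed per-length level of the members. After treatment SOX2 led the GFP-negative cells at 45.2 ± 5.77 CPM per kb, above SOX3 at 30.2 ± 5.10, and NKX6-1 still led the GFP-positive cells at 48.5 ± 2.55 CPM per kb.

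The first comparison asks which of these genes separate the sorted fractions of control cultures. Of 37 members tested by edgeR's quasi-likelihood test, 28 were lower and 1 was higher in GFP-positive than in GFP-negative cells at an adjusted p under 0.05 and a fold of at least 2, and 8 passed neither way. Over all 15404 genes tested, 15.3% were called lower and 7.47% higher, 22.8% in all. Of the members called lower, DBX2, OLIG3, NEUROG3, EN1, GATA3, TAL1, LBX1, LMX1B, PAX2 and LHX5 passed the filter for low counts only through GFP-negative libraries. PAX7, the member called higher, passed it only through GFP-positive libraries. For these genes the filter favoured the direction found. The median log2 fold change was -2.26 over the members and -0.02 over all genes. The groups did not overlap, GFP-positive lower, for 27 members, against 24.1% of all genes, and GFP-positive higher for 5, against 29.1% (53.2% either way). The 8 proliferation genes were all called lower in the same comparison, with a median log2 fold change of -3.03, and the part of cycling cells in the members' differences was not tested. In bulk RNA, fewer cells that hold a gene and less of its RNA in each cell cannot be told apart.

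All 5 pan-progenitor SOX factors were lower in GFP-positive cells. SOX2, the stem and progenitor factor, was at 99.6, 118 and 109 CPM in control GFP-negative libraries and at 11.5, 12.2 and 17.7 CPM in control GFP-positive ones, a log2 fold change of -3.08 (SE 0.202, adjusted p = 2.6e-06). SOX1 (-2.98, SE 0.221) and SOX3 (-2.99, SE 0.15), which act with it in neural progenitors, were about as far apart, and SOX9, needed for the later switch to glia, fell by 2.63 on the log2 scale (SE 0.321). SOX21, which counteracts the SOX1 to SOX3 group, was at 30.0 to 40.2 CPM in GFP-negative and 8.92 to 12.1 CPM in GFP-positive libraries. No control GFP-positive library reached a GFP-negative one for any of the 5 genes.

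Of the 6 ventral progenitor genes, 4 were lower in GFP-positive cells, and the NKX6 genes were not. FOXA2, the floor plate factor, was at 25.3, 27.1 and 13.7 CPM in GFP-negative libraries and 1.30 to 2.11 CPM in GFP-positive ones, a log2 fold change of -3.71 (SE 0.313). NKX2-2 of p3 was at 51.4 to 65.2 against 7.96 to 8.77 CPM (-2.98, SE 0.173), and OLIG2 of pMN at 15.1 to 22.1 against 2.53 to 3.48 CPM (-2.70, SE 0.234). OLIG1, the neighbour of OLIG2 on chromosome 21, differed less (-1.60, SE 0.31, adjusted p = 0.0024). NKX6-1, which is needed in ventral progenitors and kept in some motor neurons, was at 153, 184 and 148 CPM in GFP-negative and 300, 347 and 337 CPM in GFP-positive libraries. Its log2 fold change was 0.92 (SE 0.143, adjusted p = 0.00063), below a fold of 2, and its groups did not overlap. NKX6-2 was at 139 to 191 against 203 to 274 CPM, also without overlap, but its adjusted p was 0.061.

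Among the 7 intermediate progenitor genes, DBX1, DBX2 and PAX6 were lower in GFP-positive cells and the Iroquois genes were higher below a fold of 2. PAX6, which is graded across progenitors and low ventrally, was at 30.9, 37.4 and 37.5 CPM in GFP-negative and 6.11, 7.88 and 9.79 CPM in GFP-positive libraries (-2.26, SE 0.219, adjusted p = 3.0e-05). DBX1 of p0 was at 29.5 to 48.6 against 9.24 to 13.0 CPM, and DBX2 at 2.40 to 3.25 against 0.0869 to 0.41 CPM. IRX3 and IRX5, which lie 644078 bases apart on chromosome 16, were at 30.8 to 41.5 and 9.87 to 12.7 CPM in GFP-negative and at 61.1 to 66.5 and 21.7 to 26.3 CPM in GFP-positive libraries, with log2 fold changes of 0.70 (SE 0.155, adjusted p = 0.005) and 0.92 (SE 0.183, adjusted p = 0.0029). PRDM8, a PR-domain repressor, overlapped between the fractions at 53.2 to 72.5 and 56.2 to 59.7 CPM, and PRDM12, the p1 member of that family, did not pass the test at a log2 fold change of -0.84 (SE 0.441). Of the dorsal progenitor genes, OLIG3 was lower (1.45 to 2.64 against 0.029 to 0.288 CPM). PAX7 was the only member called higher in GFP-positive cells, by a log2 fold change of 1.99 (SE 0.46, adjusted p = 0.0064), though it was at 0.736 to 1.19 CPM there and 0.16 to 0.295 CPM in GFP-negative cells.

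The proneural factors were less uniform. NEUROG1 was at 23.2 to 27.2 CPM in GFP-negative and 6.56 to 9.79 CPM in GFP-positive libraries (-1.76, SE 0.207), and NEUROG3 at 0.879 to 2.89 against 0.0746 to 0.192 CPM. NEUROG2, the neurogenin that works with OLIG2 in motor neuron formation, did not pass the test at 5.12 to 6.61 and 6.26 to 8.86 CPM. NEUROD1, a later bHLH factor, was called lower by 1.17 on the log2 scale (SE 0.324, adjusted p = 0.016) although its groups overlapped, and NEUROD4 was not called (-0.86, SE 0.322, adjusted p = 0.055).

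All 7 ventral class factors tested were lower in GFP-positive cells, with a median log2 fold change of -3.19. Of these, EN1, GATA3 and TAL1 passed the filter for low counts only through GFP-negative libraries, which favoured this direction. GATA2, the first of the V2b factors, was at 13.9, 14.5 and 13.0 CPM in GFP-negative and 1.49, 1.42 and 1.38 CPM in GFP-positive libraries (-3.38, SE 0.22, adjusted p = 2.5e-06), and its partners GATA3 (-3.19, SE 0.407) and TAL1 (-3.68, SE 0.394) went with it. EVX1 of the V0 class was at 6.46 to 7.15 against 1.45 to 2.91 CPM, VSX1, which marks V2 precursors, at 8.37 to 11.3 against 1.30 to 1.70 CPM, and SOX14, a V2 factor, at 4.40 to 4.88 against 0.608 to 1.75 CPM. EN1 of the V1 class rested on 85 reads in GFP-negative and 7 in GFP-positive libraries, a ratio of 12.6 after scaling (95% exact interval 5.84 to 32.2, counting error only). Of the dorsal class and shared factors, POU4F1, which is on in dI1 to dI3 and dI5 neurons, LBX1 (dI4 to dI6), LMX1B (dI5), PAX2 and LHX5 were lower, POU4F1 at 6.60 to 10.3 against 2.26 to 3.81 CPM. LBX1 and LMX1B were called lower with few reads and were at no more than 1.76 CPM in any library.

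**Figure D2:**
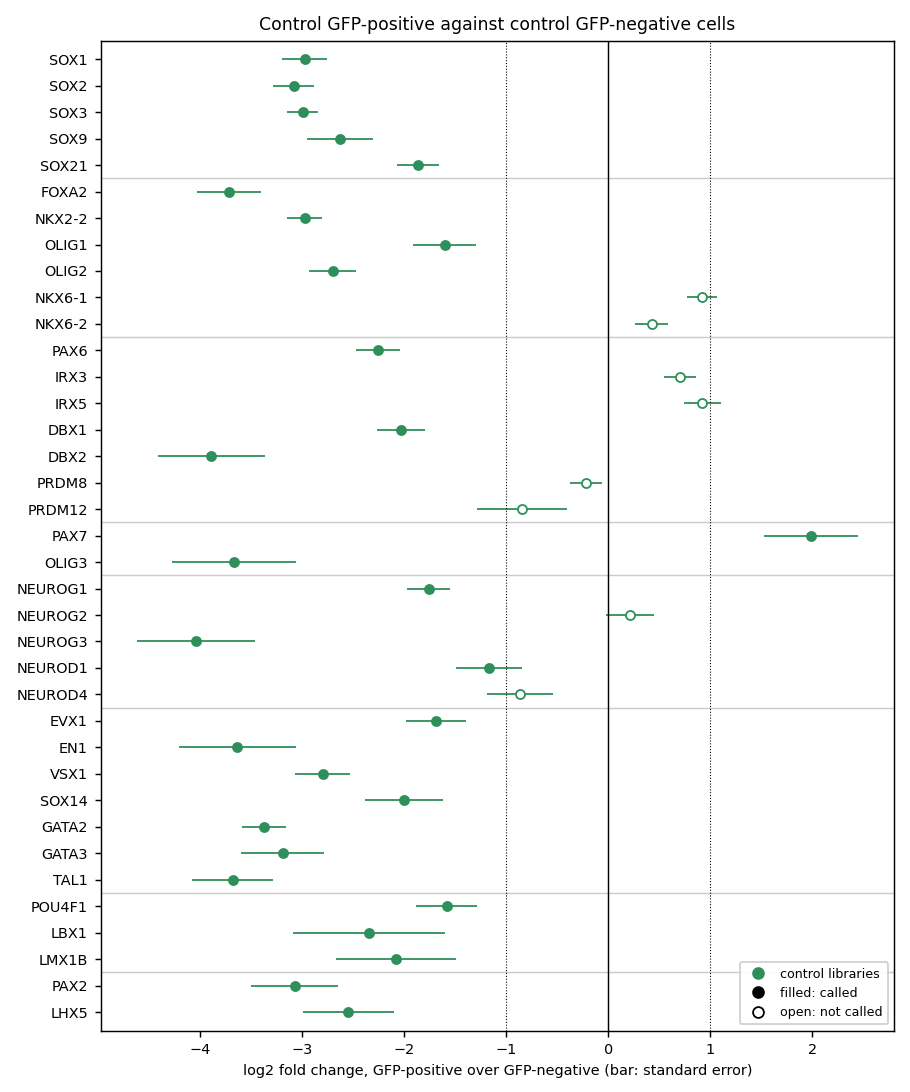
Log2 fold change of control GFP-positive over control GFP-negative cells for the 37 members tested (3 libraries a group; bars are standard errors; filled points were called, open points not; dotted lines mark a fold of 2). Most points lie left of 0, and NKX6-1, NKX6-2, IRX3, IRX5, NEUROG2 and PAX7 lie right of it.

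The second comparison asks how cis-chlordane moved these genes in GFP-negative cells, where most of them are at their highest level. Of 37 members tested, 26 were lower, none was higher and 11 were not called. Over all 15513 genes tested 9.75% were called lower and 8.59% higher, 18.3% in all. Of the members called lower, SOX14, OLIG3, NEUROG3, PAX2 and GATA3 passed the filter for low counts only through control libraries, which favoured this direction. The median log2 fold change was -1.37 over the members and -0.01 over all genes, and the groups did not overlap, treated lower, for 28 members, against 22.6% of all genes, and treated higher for 0 members, against 24% (46.6% either way). No member was higher at an unadjusted p under 0.05 either, and DESeq2 also called 0 higher. The 8 proliferation genes, all called lower, summed to 1296 to 1339 CPM in control and 423 to 499 CPM in treated GFP-negative libraries. Of the motor neuron list 5 of 8 genes fell, the sum going from 229 to 251 CPM to 70.0 to 93.8 CPM. Of 4 neural progenitor genes tested NES (-1.26, SE 0.217), FABP7 (-1.82, SE 0.267) and MSI1 (-1.36, SE 0.188) fell, whereas VIM, most of the list's sum after treatment, was at 3676 to 4139 CPM in control and 6004 to 7115 CPM in treated libraries (0.71, SE 0.121), higher below a fold of 2. The astrocyte list summed to 70.2 to 99.9 and 67.2 to 103 CPM, nearly all of it GJA1 (-0.16, SE 0.209), while GFAP rose from 0.197 to 0.559 CPM to 1.10 to 2.33 CPM (2.48, SE 0.527) and ALDH1L1 was not called (1.38, SE 0.764). GFAP passed the filter for low counts only through treated libraries, which favoured a rise. The part of these lists in the members' changes was not tested.

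The SOX factors split. SOX2 was at 99.6 to 118 CPM in control and 96.8, 122 and 122 CPM in treated GFP-negative libraries, a log2 fold change of 0.04 (SE 0.158, adjusted p = 0.87), with overlapping groups. SOX3 was at 285, 303 and 249 CPM in control and 56.1, 57.6 and 75.2 CPM in treated libraries, a fall of 2.17 on the log2 scale (SE 0.176, adjusted p = 4.5e-05). SOX1 fell from 57.2 to 82.3 CPM to 22.4 to 27.8 CPM (-1.55, SE 0.192) and SOX9 from 21.4 to 31.0 CPM to 8.60 to 13.4 CPM (-1.27, SE 0.23). SOX21 varied from 14.9 to 73.4 CPM between the treated libraries, so that its log2 fold change of 0.37 had an SE of 0.442.

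Every ventral progenitor gene was lower in treated GFP-negative cells with no overlap, and 5 of the 6 were called. OLIG1 (chr21:33070141-33072413) was at 6.04, 4.70 and 3.68 CPM in control and 0.561, 0.909 and 0.495 CPM in treated libraries, a log2 fold change of -2.88 (SE 0.374, adjusted p = 0.0005). OLIG2 (chr21:33025935-33029196), 40945 bases away, was at 20.1, 22.1 and 15.1 CPM in control and 12.4, 11.8 and 11.3 CPM in treated libraries, a log2 fold change of -0.71 (SE 0.205, adjusted p = 0.025) that did not reach a fold of 2. NKX2-2 (log2 fold change -1.75, SE 0.21), NKX6-2 (-1.37, SE 0.172) and NKX6-1 (-1.21, SE 0.191) fell as well, NKX6-1 from 148 to 184 CPM to 58.6 to 88.0 CPM. FOXA2 fell by 1.22 (SE 0.322, adjusted p = 0.017) but missed the fold or the p limit when control replicate 2 (-1.04), treated replicate 1 (-0.995) or treated replicate 3 (-1.23) was left out.

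Of the intermediate progenitor genes, PAX6 stood apart, with 30.9 to 37.5 CPM in control and 36.0 to 41.2 CPM in treated GFP-negative libraries (log2 fold change 0.11, SE 0.167, adjusted p = 0.67). PRDM8 fell from 53.2 to 72.5 CPM to 17.5 to 23.5 CPM (-1.70, SE 0.198), and DBX1 (-1.27, SE 0.238), DBX2 (-1.78, SE 0.385) and IRX5 (-1.15, SE 0.241) fell with it. IRX3 lay at the fold limit itself (-1.001, SE 0.187, adjusted p = 0.0032), and it was below the limit when control replicate 1 (-0.90), control replicate 2 (-0.98) or treated replicate 3 (-0.95) was left out. It was also just below the limit with DESeq2 (-0.9993), RLE scaling (-0.9989) and all 12 libraries in 1 fit (-0.981). IRX3 kept its call in 6 of 16 alternatives. With each library's trend of level with GC content removed, FOXA2 (-0.99), IRX3 (-0.71), IRX5 (-0.94) and DBX1 (-0.99) were all below a fold of 2. The GC content of the genes, weighted by their counts, was 52.3 to 53.0% in control and 51.7 to 51.9% in treated GFP-negative libraries. PRDM12 was not called at an adjusted p of 0.1, and was called without control replicate 3 (-1.28). OLIG3 went from 1.45 to 2.64 CPM to 0.109 to 0.432 CPM (-3.08, SE 0.534).

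Among the proneural genes, NEUROG1 was at 23.2 to 27.2 CPM in control and 4.95 to 5.18 CPM in treated libraries, a fall of 2.32 on the log2 scale (SE 0.189, adjusted p = 4.6e-05). NEUROG2 (-1.30, SE 0.286) and NEUROG3 (-2.39, SE 0.538) fell with it. The later factors NEUROD1 (-0.91, SE 0.319, adjusted p = 0.054) and NEUROD4 (-0.59, SE 0.313, adjusted p = 0.18) did not pass the test, though NEUROD1 did without control replicate 1 (-1.17) and with the GC trend removed (-1.09).

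Most class factors that could be tested fell. SOX14 was nearly absent after treatment, at 4.40, 4.84 and 4.88 CPM in control and 0.0432, 0.254 and 0.0708 CPM in treated libraries (log2 fold change -5.20, SE 0.522, adjusted p = 0.00013). GATA2 went from 13.0 to 14.5 CPM to 2.62 to 3.61 CPM (-2.22, SE 0.24), EVX1 from 6.46 to 7.15 CPM to 1.13 to 2.11 CPM (-2.07, SE 0.311) and POU4F1 from 6.60 to 10.3 CPM to 0.863 to 1.16 CPM (-2.99, SE 0.311). PAX2, shared by several inhibitory classes (-2.69, SE 0.429), GATA3 (-1.84, SE 0.459) and VSX1 (-1.47, SE 0.263) fell too. TAL1 (-1.15, SE 0.299) and LHX5 (-1.60, SE 0.426) were called, and each missed the p limit when control replicate 2 or treated replicates 1 or 3 were left out, at -1.02 to -1.21 for TAL1 and -1.22 to -1.76 for LHX5, and LHX5 also without treated replicate 2 (-1.50). EN1, LBX1, LMX1B and FOXD3 were tested and not called, LBX1 being called without control replicate 1 (-2.41). FOXD3, a factor of dI2 neurons and of the neural crest, was at 0.235 to 0.46 CPM in control and 0.354 to 0.734 CPM in treated libraries. Of the 4 genes of a neural crest list, only ETS1 was high enough to be tested; it rose from 9.10 to 24.1 CPM to 46.6 to 59.7 CPM (1.79, SE 0.33, adjusted p = 0.0031), and it rose in GFP-positive cells too (2.69, SE 0.262). SOX10, which defines crest cells, stayed at or below 0.0863 CPM in GFP-negative libraries. Their part in the FOXD3 values was not tested.

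The third comparison asks the same of GFP-positive cells. Of 28 members tested, 14 were lower, 2 were higher and 12 were not called, against 11.2% lower and 12.8% higher over all 15333 genes, 24% in all. Of the members called lower, SOX14, PAX7, EVX1 and POU4F1 passed the filter for low counts only through control libraries, which favoured this direction. The median log2 fold change was -1.0 over the members and 0.03 over all genes. The groups did not overlap for 20 members with treated lower, against 30.6% of all genes, and for 3 with treated higher, against 26.9% (57.5% either way). Beside these values, the motor neuron list fell from 1214 to 1429 CPM to 296 to 440 CPM, with 6 of its 8 genes called lower. The proliferation list summed to 159 to 207 and 90.4 to 115 CPM. The 5 neural progenitor genes summed to 3016 to 3418 CPM in control and 2384 to 3207 CPM in treated libraries, mostly VIM (0.16, SE 0.163) and NES (-0.45, SE 0.158). FABP7 fell (-2.03, SE 0.265), and MSI1 was lower without overlap below a fold of 2 (-0.92, SE 0.158). Their part in the members' changes was not tested. ISL1, the gene behind the reporter, was itself at 62.4 to 68.5 CPM in control and 8.01 to 15.3 CPM in treated GFP-positive libraries. In both fractions, a change in which cells were sorted cannot be told apart from a change within cells.

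The 2 members that rose were PAX6 and NEUROD4. PAX6 (chr11:31784779-31817961) was at 6.11, 7.88 and 9.79 CPM in control and 33.5, 26.2 and 31.6 CPM in treated GFP-positive libraries, a log2 fold change of 2.01 (SE 0.207, adjusted p = 5.0e-10). The treated libraries overlapped the control GFP-negative ones (30.9 to 37.5 CPM) and lay below the treated GFP-negative ones (36.0 to 41.2 CPM). NEUROD4, a bHLH factor of early neurons, was at 11.0, 11.4 and 17.0 CPM in control and 27.8, 23.0 and 36.0 CPM in treated libraries (1.21, SE 0.209, adjusted p = 9.8e-06), and it was below a fold of 2 at 0.86 once the trend with GC content was removed. The count-weighted GC content was 52.0 to 53.2% in control and 50.3 to 51.2% in treated GFP-positive libraries. The groups overlapped for neither gene. OLIG2 was also higher without overlap, at 3.43, 3.48 and 2.53 CPM in control and 5.94, 6.58 and 5.11 CPM in treated libraries, with a log2 fold change of 0.97 (SE 0.257, adjusted p = 0.002) just under a fold of 2. It reached that fold with the GC trend removed (1.31), and when control replicate 1 (1.03), control replicate 2 (1.04) or treated replicate 3 (1.06) was left out.

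Other progenitor genes fell or were not called. SOX2 was at 11.5 to 17.7 CPM in control and 11.7 to 15.5 CPM in treated libraries (log2 fold change 0.00, SE 0.208), and SOX1 at 7.79 to 12.1 and 8.02 to 10.1 CPM (-0.01, SE 0.217), both with overlap. SOX3 fell by 2.17 on the log2 scale (SE 0.211, adjusted p = 1.3e-10), from 34.9 to 42.0 CPM to 6.43 to 10.8 CPM. SOX21 fell (-1.25, SE 0.284), below a fold of 2 without treated replicate 3 (-0.87). OLIG1 was at 1.23, 1.88 and 1.95 CPM in control and 0.36, 0.744 and 0.291 CPM in treated libraries (-1.79, SE 0.422, adjusted p = 0.00059), opposite in sign to OLIG2. NKX6-2 fell from 203 to 274 CPM to 33.4 to 77.4 CPM (-2.10, SE 0.206), and PRDM8 fell from 56.2 to 59.7 CPM to 16.2 to 17.6 CPM (-1.73, SE 0.176). NKX6-1 was at 300 to 347 CPM in control and 158 to 175 CPM in treated libraries, a log2 fold change of -0.89 (SE 0.155, adjusted p = 1.1e-05) under the fold limit. FOXA2 (-1.79, SE 0.397), IRX5 (-1.17, SE 0.2) and DBX1 (-1.09, SE 0.236) were called lower, DBX1 not without control replicate 2 (-0.93) or treated replicate 3 (-0.89), and neither IRX5 (-0.83) nor DBX1 (-0.59) reached a fold of 2 with the GC trend removed. IRX3 (-0.91, SE 0.17), SOX9 (-0.89, SE 0.301) and NKX2-2 (-0.77, SE 0.227) passed the p limit at less than a fold of 2; SOX9 reached that fold without control replicate 1 (-1.02) or control replicate 2 (-1.13). PAX7 went from 0.736 to 1.19 CPM to 0.0859 to 0.185 CPM (-2.87, SE 0.538).

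Of the neurogenic and class factors at hand in GFP-positive cells, NEUROG1 fell by 3.12 on the log2 scale (SE 0.337), from 6.56 to 9.79 CPM to 0.397 to 1.52 CPM, and NEUROG2 (-1.38, SE 0.25), EVX1 (-1.89, SE 0.409) and POU4F1 (-2.90, SE 0.394) fell with it. SOX14 had 113 reads over the control and 2 over the treated GFP-positive libraries, a ratio of 64.7 after scaling (95% exact interval 17.5 to 541, counting error only). NEUROD1 (-0.34, SE 0.252), VSX1 (-0.82, SE 0.377) and GATA2 (-0.70, SE 0.396) did not pass the test, GATA2 being called without treated replicate 3 (-1.21). DBX2 (0.72, SE 0.648) and PRDM12 (-0.08, SE 0.443) were not called either. PAX2, GATA3, TAL1, LHX5, LMX1B, EN1, LBX1, OLIG3 and NEUROG3 were too low to be tested in GFP-positive cells.

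**Figure D3:**
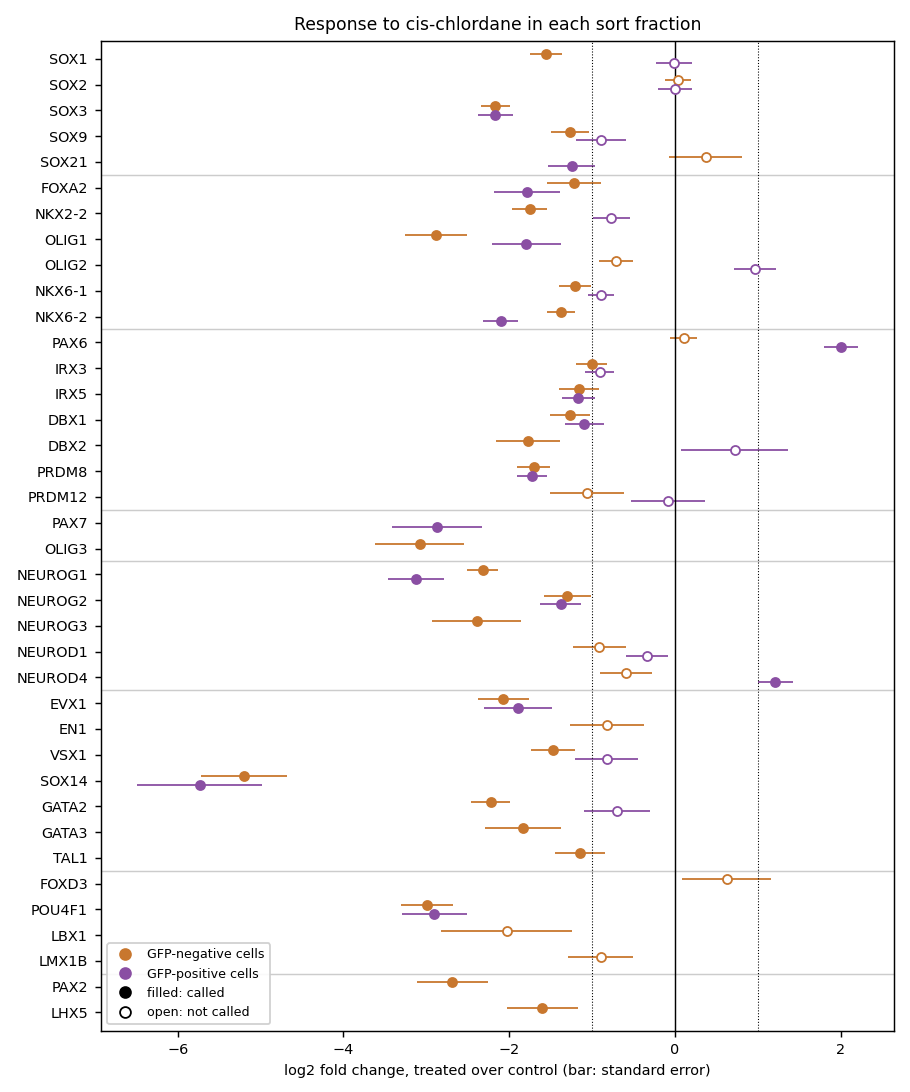
Log2 fold change of treated over control cells in the GFP-negative (orange) and GFP-positive (purple) fraction for every member tested (3 libraries a group; bars are standard errors; filled points were called, open points not; dotted lines mark a fold of 2). Most pairs lie left of 0; PAX6 (2.01), NEUROD4 (1.21) and OLIG2 (0.97) in GFP-positive cells lie right of it, and SOX14 lies farthest left.

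Over both fractions, 12 members were called lower in each: SOX3, FOXA2, OLIG1, NKX6-2, IRX5, DBX1, PRDM8, NEUROG1, NEUROG2, EVX1, SOX14 and POU4F1. With the GC trend removed, FOXA2 missed the call in GFP-negative cells, and IRX5 and DBX1 missed it in both fractions. A further 8 were called lower in GFP-negative cells and tested without a call in GFP-positive cells, and 6 were too low for a test there. The share of all genes called lower in both fractions was not computed, so these counts cannot be judged against it. Whether the response differed between fractions was tested as an interaction over all 12 libraries, with the difference counted as the log2 response in GFP-positive minus that in GFP-negative cells. Of 38 members tested, 4 had a higher and 1 a lower response in GFP-positive cells at an adjusted p under 0.05, against 0.968% and 1.22% of 16226 genes, 2.19% in all. The differences were 1.81 for PAX6 (SE 0.261, adjusted p = 0.0022), 1.59 for OLIG2 (SE 0.287, adjusted p = 0.0098), 1.45 for SOX1 (SE 0.282, adjusted p = 0.014), 1.72 for NEUROD4 (SE 0.414, adjusted p = 0.042) and -3.37 for PAX7 (SE 0.757, adjusted p = 0.032). For PAX7 the GFP-negative side rested on 0.16 to 0.363 CPM. PAX7 passed the filter for low counts only through control GFP-positive libraries, which favoured the direction found.

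With the culture as a block, taking fractions of the same replicate number as 1 culture, the interaction also called SOX21 (-1.62, adjusted p = 0.0019), NKX2-2 (0.91, adjusted p = 0.036) and GATA2 (1.37, adjusted p = 0.026). SOX21 was called by no other alternative. NKX2-2 was also called with DESeq2 (0.96), library size alone (1.16), at least 10 counts in every library (1.06) and the GC trend removed (1.00), and GATA2 with DESeq2 and with at least 10 counts (1.60). PAX6 and OLIG2 were called under all 21 alternatives run, at 1.66 to 2.08 and 1.46 to 1.85. SOX1, NEUROD4 and PAX7 were not: SOX1 missed the limit without control GFP-positive replicate 1 (1.39) or treated GFP-negative replicate 1 (1.40), and NEUROD4 missed it without any 1 of 9 libraries and PAX7 without any 1 of 10, at 1.34 to 1.92 and -3.66 to -3.05.

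**Figure D4:**
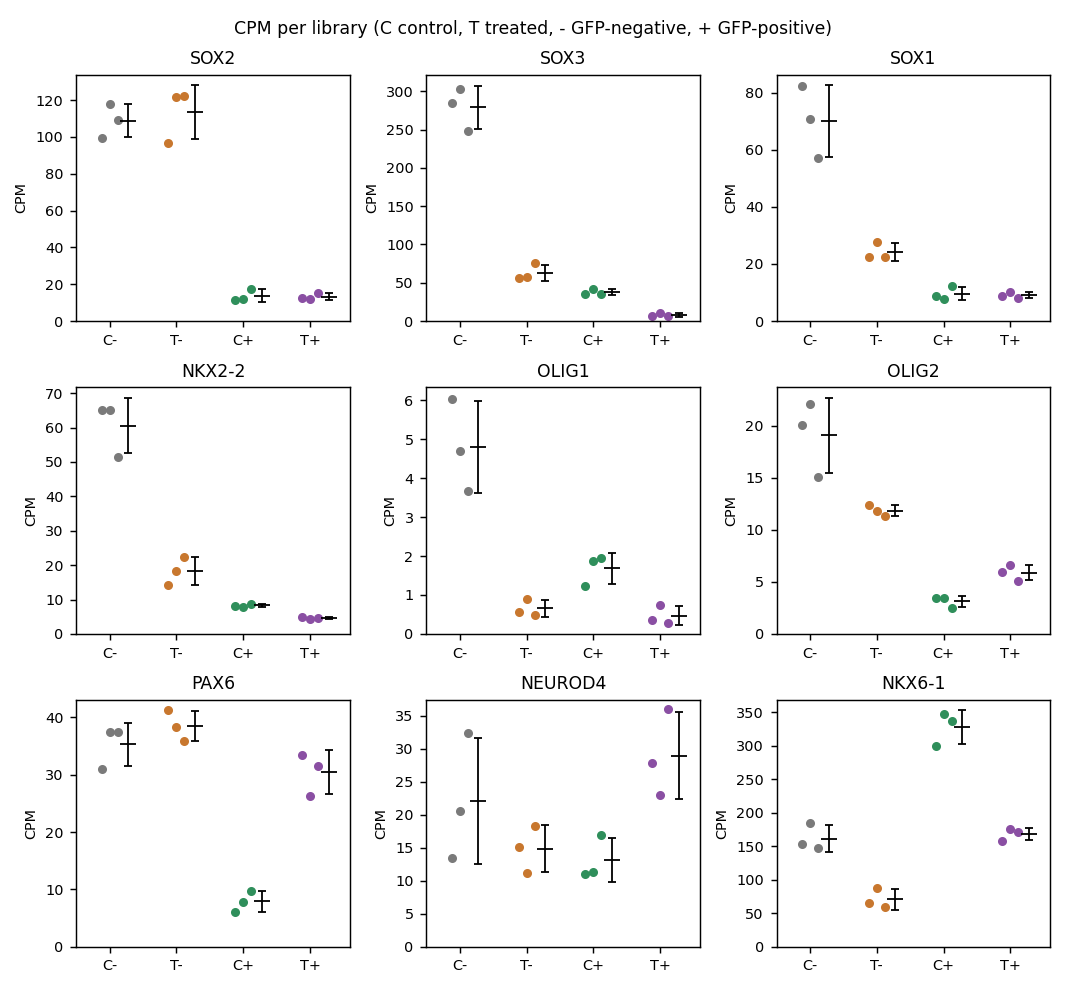
CPM after TMM scaling in each of the 12 libraries for 9 members (C control, T treated, minus and plus for GFP-negative and GFP-positive; black bars are the mean and SD of 3 libraries; axes start at 0). SOX2 overlaps between control and treated in each fraction while SOX3 falls in both, OLIG1 falls in both while OLIG2 is lower in GFP-negative and higher in GFP-positive treated libraries, and PAX6 rises in GFP-positive cells from 7.93 to 30.4 CPM on average.

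Beyond the members, 45 other factors of the neural tube were followed as one list. In GFP-negative cells 15 of 35 tested were lower and the other 20 were not called, against 9.75% lower and 8.59% higher over all genes. In GFP-positive cells 18 of 32 were lower and 2 higher, against 11.2% and 12.8% of all genes. DMRT3, of dI6 neurons, fell in GFP-negative (-3.66, SE 0.715) and GFP-positive cells (-3.08, SE 0.454), as did MAB21L2 (-2.48, SE 0.164, and -3.62, SE 0.219). In both fractions DMRT3 passed the filter for low counts only through control libraries, which favoured this direction. The factors higher in treated GFP-positive cells were FOXP2, a factor of V1 neurons (2.10, SE 0.276), and MSX1, a dorsal progenitor factor (1.14, SE 0.365), whose groups overlapped. Between the control fractions 11 of 35 were lower in GFP-positive cells and 5 were higher, against 15.3% and 7.47% of all genes. Among the lower ones were FOXN4, which starts the V2 programme in p2 (-3.22, SE 0.191), NKX2-8 (-3.19, SE 0.714) and ZIC2 (-2.02, SE 0.262). NKX2-8 passed the filter for low counts only through GFP-negative libraries, which favoured this direction. It was at 0.32 to 1.87 CPM in those and 0.0579 to 0.224 CPM in GFP-positive libraries. The higher ones were led by ISL1 (4.57, SE 0.187), ISL2 (1.70, SE 0.247) and NR4A2 (1.59, SE 0.323). ISL1 is the gene behind the reporter used for the sort, so its direction was set by the design. Of 35 tested for the interaction, 1 (FOXP2, 1.69) had a higher and 4 (among them NR4A2 at -1.80, MNX1 at -1.49 and MAB21L2 at -1.23) a lower response in GFP-positive cells. Over all genes tested the shares were 0.968% and 1.22%.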

How the data were processed

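RNA was sequenced from 12 libraries of sorted WA09-Islet1-GFP cells, 3 in each of 4 groups. Per the study's methods and the labels, the authors joined lanes, mapped single-end reads from a stranded mRNA kit to hg38 with HISAT2 and the Ensembl annotation, and counted with featureCounts; tool versions and the strand setting are not given in the sources used here. The deposited values are raw counts per gene symbol, with 0 per-sample columns left unused, and 5688 of 28278 symbols had no counts.

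Each comparison was fitted over its own groups, and the interaction over all 12 libraries, with edgeR 4.0.16 (R 4.3.3): filterByExpr (minimum count 10, minimum total 15), TMM scaling, the quasi-likelihood test and Benjamini-Hochberg adjustment over all genes tested. A gene was called at an adjusted p under 0.05 and a fold of at least 2, and for the interaction at an adjusted p under 0.05. Standard errors are the log2 fold change divided by the root of F. An exact permutation test of 3 against 3 cannot go below 0.1. A gene with no library above 3 counts was taken as at the floor. Per-kilobase levels used the longest GENCODE 44 transcript of hg38, and all 48 members matched. Promoters came from the RefSeq table (GRCh38.p14). The fit was first tested on simulated data.

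The main fits had no block, so the fractions of a culture were treated as independent in every main test. Only the block alternatives took the replicate numbers to pair the fractions of a culture. Over 13368 genes with at least 10 counts in every library, deviations from the group means correlated between libraries of the same number. The r was 0.453, 0.163 and 0.477 in control and 0.203, 0.282 and 0.548 in treated cultures. Mismatched control pairs lay at -0.5 to 0.0997. Treated GFP-negative replicate 2 with GFP-positive replicate 1 was at 0.283, so these values do not settle the pairing of treated replicates 1 and 2. Alternatives were DESeq2 1.42.0 (the authors' tool), RLE scaling, library size alone, other filters, removal of the GC trend, the replicate block, a joint fit of the 4 groups, glmTreat, and leaving out 1 library at a time. The members and the gene lists were chosen with earlier results of these data known. All 48 members are accounted for; those with a mean of at least 1 CPM in a group are given with values, and of the 45 other neural tube factors up to 3 per direction and comparison, those of largest change with a mean of at least 1 CPM, are named, except 1 that is not reported here.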

Additional observations from a re-analysis of the deposited data

Results flagged for a closer look

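The response to cis-chlordane differed between GFP-positive and GFP-negative cells for 5 members, by the interaction test over 12 libraries. The log2 response in GFP-positive minus that in GFP-negative cells was 1.45 for SOX1, which fell in GFP-negative cells and was at -0.01 in GFP-positive cells. It was 1.59 for OLIG2 and 1.81 for PAX6. It was 1.72 for NEUROD4 and -3.37 for PAX7, the latter at under 1.2 CPM in every library. PAX7 passed the filter for low counts only through control GFP-positive libraries, which favoured the direction found. Over all genes tested 2.19% were called by the interaction test.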

How the results depend on the processing

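Among called members, 12 of 26 in the GFP-negative treatment comparison, 9 of 16 in the GFP-positive one, 23 of 29 between control fractions and 2 of 5 for the interaction (PAX6 and OLIG2) were called under every alternative that gave a value, and none changed sign. Testing against a fold of 2 itself (glmTreat) left 12 members lower in GFP-negative cells, 8 lower and 1 higher in GFP-positive cells, and 0 higher between control fractions. With at least 10 counts in every library, 18 members were lower and 0 higher between control fractions, and 0 had a lower interaction; with no filter 0 had a lower interaction. Removing the GC trend, alone or with the replicate block, or fitting all 12 libraries together gave 3 members higher in control GFP-positive cells, since NKX6-1 and IRX5 then reached a fold of 2. The block by culture gave 2 lower interactions, and the replicate block by number kept every count of calls, with LBX1 (-2.19) gained and IRX3 (-0.99) lost in GFP-negative cells. Leaving out 1 library at a time gave 22 to 27 members lower and 0 to 0 higher in GFP-negative cells, 14 to 16 lower and 2 to 3 higher in GFP-positive cells, 25 to 30 lower and 1 to 2 higher between control fractions, and 0 to 2 lower and 2 to 5 higher interactions. Between control fractions LBX1 was lost without control GFP-negative replicate 3 (-1.47) or any GFP-positive replicate (-1.91 to -2.77), NEUROD1 without GFP-negative replicate 3 (-0.86) or GFP-positive replicate 1 (-1.03) or 2 (-1.06), and LMX1B without replicate 2 of either fraction (-2.01 and -2.28). NEUROD4 was gained without GFP-negative replicate 1 (-1.13) and NKX6-1 without GFP-negative replicate 2 (1.04). The interaction also called NKX2-2 without treated GFP-negative replicate 3 (1.09), and NKX6-2 (-1.20) and GATA2 (1.69) without treated GFP-positive replicate 2. Library size alone moved the median of all genes to 0.14 in GFP-positive cells and 0.20 for the interaction. Sign changes touched only values that were not called, all near 0 except SOX21 in GFP-negative cells. SOX21 changed sign there only without treated replicate 2 (-0.18). In GFP-negative cells SOX2 was -0.0257 by library size alone, and PAX6 -0.10 with the GC trend removed and -0.10 with the replicate block as well. In GFP-positive cells SOX2 was -0.0251 with DESeq2, -0.0251 with RLE scaling, -0.0063 with no filter and -0.0655 with all 12 libraries, SOX1 was 0.0851 by library size alone, 0.0041 with the replicate block, 0.23 with the GC trend removed and 0.26 with both, and PRDM12 was 0.0123, 0.35 and 0.42 by library size alone, without the GC trend and with the block as well. Without 1 library, SOX2 lay between -0.0228 and 0.13 and SOX21 between -0.18 and 0.78 in GFP-negative cells, and SOX2 between -0.13 and 0.21, SOX1 between -0.15 and 0.19 and PRDM12 between -0.39 and 0.087 in GFP-positive cells. The cause of these changes was not tested. Genes under about 0.1 CPM rest on 3 counts or fewer a library and limit what can be said of genes such as EVX2, SIM1, BARHL1 and LHX9.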
